A study of Mus musculus with 44 samples.

Results

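Pre-bone cartilage and stromal progenitors (pBCSP) are the sorted skeletal progenitors that stand between the skeletal stem cell (SSC) and the bone, cartilage and stromal progenitor (BCSP). The mRNA of pBCSP from libraries labelled as Mettl3 knockout was compared here with that of control pBCSP across all genes. The members were the 4 input libraries of pBCSP out of 44 libraries in all, namely 2 WT and 2 Mettl3KO. WT mice were Mettl3 fl/fl littermates without Cre. Mettl3KO mice were Mettl3 fl/fl;Col2a1-Cre, named Mettl3cko in the sample titles, in which Cre follows the promoter of the cartilage collagen gene Col2a1, so that cells which never used this promoter keep the gene. All mice were C57Bl6, untreated, at postnatal day 3, and animals of either sex were used. Cells came from long bones and were sorted as CD45-, Ter119- and Tie2- cells with antibodies to CD51, Thy1, 6C3, CD105 and CD200. All 44 libraries are entered as wild type under genotype in the labels, and only the titles tell WT from Mettl3KO. Nothing states how many animals stand behind a library, so p-values measure the spread between libraries.

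Mettl3 is the catalytic subunit of the complex that writes N6-methyladenosine (m6A), the most common internal modification of mRNA. Mettl14 and Wtap are its core partners, and reader proteins such as Ythdf2, which speeds mRNA decay, act on the mark. Progenitors of the growth plate make a matrix rich in type II and type IX collagen, and their division and maturation are tuned by Hedgehog, BMP, Wnt and FGF signals.

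The 4 pBCSP input libraries held 30852613 to 35325482 counts. A count was found for 20536 and 20747 genes in WT, and for 17283 and 19063 genes in Mettl3KO, and the library with the fewest genes, Mettl3KO replicate 1, was also the deepest. Pearson's r of log2 CPM (read counts scaled to library size with TMM factors) was 0.980 between the WT libraries and 0.957 between the Mettl3KO libraries, against 0.948 to 0.974 across genotypes. Xist, the non-coding RNA of the inactive X chromosome, was found at 113 CPM in WT replicate 1 and 113 CPM in Mettl3KO replicate 2, and at 5.47 and 0.0888 CPM in the other two, which held the Y-linked Ddx3y instead. Each genotype therefore had 1 library of each kind. The same replicate numbers held Xist in SSC and BCSP, so libraries of 1 genotype and number may share animals across the 3 populations, which the labels do not say.

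The targeted gene was read first. Mettl3 (chr14:52294841-52305128, GRCm38) stood at 11.95 and 16.2 CPM in WT and at 22.5 and 23.0 CPM in the libraries labelled Mettl3KO, a log2 fold change of 0.69 ± 0.31 (SE) with an unadjusted p of 0.0659. Both Mettl3KO libraries were above both WT libraries, so gene-level mRNA did not show the deletion. These counts pool all exons and do not separate the floxed part, and the labels were not checked by them. The study itself reports the deletion by qRT-PCR and by Western blot of SSC. It also reports less m6A in a dot blot of stem and progenitor cells, and lower m6A levels in SSC, pBCSP and BCSP. In the matched m6A immunoprecipitation (IP) libraries of the same sorted cells, Mettl3 stood at 19.1 and 18.8 CPM in WT and at 5.40 and 1.04 CPM in Mettl3KO (log2 fold change -2.55 ± 1.27, unadjusted p = 0.102). The input change of Mettl3 was 0.19 in SSC and -0.15 in BCSP.

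Across 16017 tested genes, no gene passed a Benjamini-Hochberg adjusted p of 0.05 in edgeR's quasi-likelihood test (smallest adjusted p = 0.569), and 1341 genes had an unadjusted p under 0.05. DESeq2 on the same 4 libraries passed 158 genes, of which 68 were higher and 90 lower in Mettl3KO. The call used from here on is the rule of the study, a log2 fold change beyond 0.5 in either direction with an unadjusted p under 0.05, which carries no control of the false discovery rate. It called 622 genes higher (3.88% of those tested) and 717 genes lower (4.48%) in Mettl3KO. Among the 8086 genes with a mean of at least 10 CPM the calls were 458 higher and 397 lower, and among 510 genes with a mean of at least 300 CPM they were 52 higher and 38 lower. Of the lower genes, 147 had no count in either Mettl3KO library, while 11 of the higher genes had none in either WT library. Such genes passed the count filter only through the other genotype, and both Mettl3KO libraries held fewer genes with a count than either WT library. The part of lower detection in this imbalance was not tested. Mettl3KO replicate 1 lay farther from the WT mean than replicate 2 for 71.2% of the higher and 55.2% of the lower genes. Without WT replicate 1 the rule called 580 genes, without WT replicate 2 it called 335, and without Mettl3KO replicate 2 it called 4456. In bulk libraries, fewer cells of a type and less RNA per cell cannot be told apart.

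**Figure D1:**
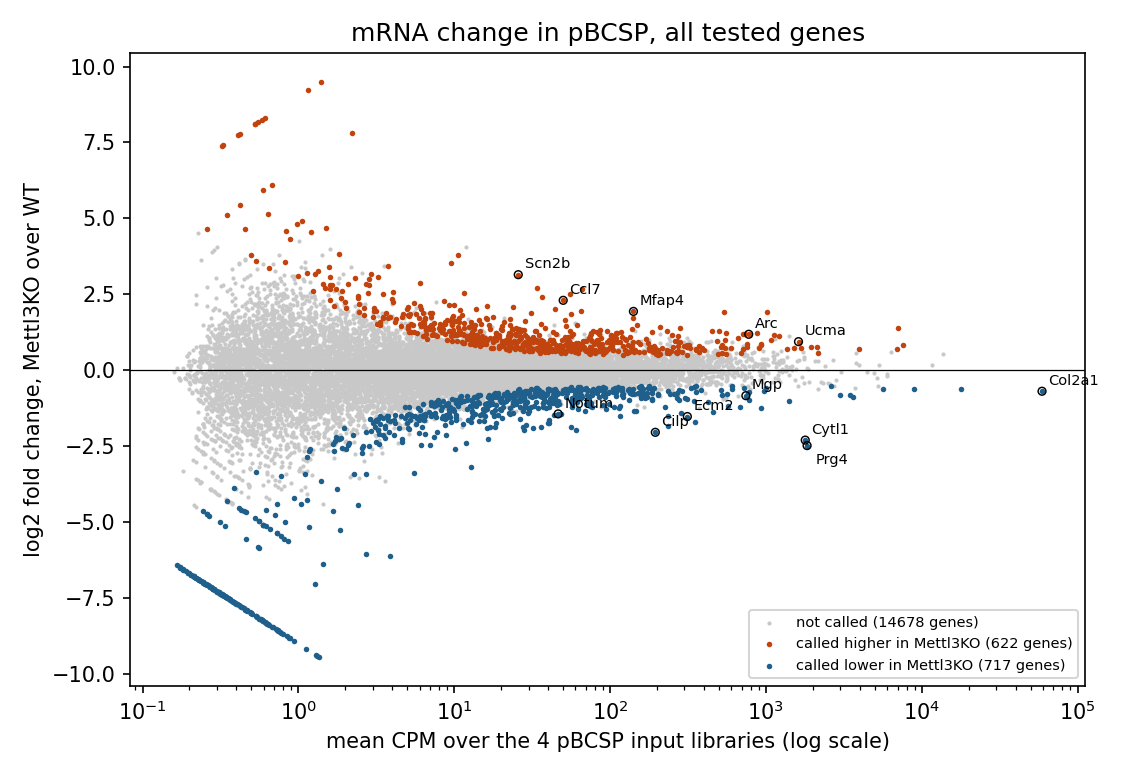
Each point is 1 of the tested genes, with its mean CPM over the 4 pBCSP input libraries on a log axis and its log2 fold change (Mettl3KO over WT) on the vertical axis. Orange points are the 622 genes called higher and blue points the 717 called lower, and the diagonal line of blue points at the lower left holds genes with no count in Mettl3KO, while Prg4, Cytl1 and Col2a1 stand at high levels below the zero line.

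Among the 12 lower genes with the smallest p were Prg4, Cytl1, Cilp and Ecm2, which code for secreted proteins. Prg4 (chr1:150449412-150466165), which encodes the joint lubricant lubricin, stood at 3103 and 3137 CPM in WT and at 371 and 742 CPM in Mettl3KO. It was 5.61-fold lower (log2 fold change -2.49 ± 0.36, unadjusted p = 0.000527), and the groups did not overlap, as was the case for 41.7% of all tested genes. Cytl1 (chr5:37735519-37739820), a secreted cytokine-like protein of cartilage, stood at 2517.5 and 3434 CPM in WT and at 436 and 767 CPM in Mettl3KO, and was 4.95-fold lower (unadjusted p = 0.000589). Cilp, a matrix protein of the intermediate cartilage layer, was measured at 343 and 286 CPM in WT against 53.0 and 98.9 CPM in Mettl3KO (log2 fold change -2.05 ± 0.35). Ecm2, a leucine-rich matrix protein, was at 440 and 492 CPM in WT and at 162 and 160 CPM in Mettl3KO. These 4 genes were lower in both Mettl3KO libraries, with Prg4, Cytl1 and Cilp lower in replicate 1 than in replicate 2.

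The other 8 had varied products. Casr, the calcium-sensing receptor that growth plate chondrocytes use, stood at 15.6 and 19.0 CPM in WT and at 3.26 and 2.45 CPM in Mettl3KO. Rgs4, a brake on G protein signalling, was at 43.6 and 43.4 CPM against 10.7 and 13.2 CPM. Both were more than 3-fold lower, and their libraries kept far apart. Vwa1, a pericellular matrix protein of cartilage, was at 126 and 141 CPM in WT and 52.7 and 56.1 CPM in Mettl3KO. Hmox1, which breaks down haem, was at 90.5 and 85.6 CPM against 37.7 and 34.6 CPM. The nuclear long non-coding RNA Neat1, the scaffold of paraspeckles, was at 304 and 328 CPM against 134 and 139 CPM, a log2 fold change of -1.21 ± 0.20. In these last 3 genes the replicates of each genotype lay close together. Aoc2, Ngef and the unclassified transcript Gm37352 completed the 12, with log2 fold changes of -2.41, -1.25 and -1.91.

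The 12 higher genes with the smallest p also had varied products. Ccl7 (chr11:82045712-82047525), a chemokine that attracts monocytes, stood at 17.9 and 15.9 CPM in WT and at 91.6 and 74.8 CPM in Mettl3KO, and was 4.92-fold higher (log2 fold change 2.30 ± 0.25, unadjusted p = 0.000103). Mfap4, an elastic fibre protein, was at 57.8 and 59.5 CPM in WT and at 210 and 238 CPM in Mettl3KO. Ptn, the growth factor pleiotrophin, was at 78.8 and 78.9 CPM against 239 and 198 CPM. Each of the 3 genes had WT replicates within a narrow range, and every Mettl3KO library was more than 2-fold above them. Serping1, the inhibitor of complement C1, was at 25.4 and 28.7 CPM in WT and at 88.8 and 119 CPM in Mettl3KO. Scn2b, a sodium channel subunit, was at 4.66 and 5.80 CPM against 66.3 and 26.3 CPM, and the placental growth regulator Phlda2 was at 24.8 and 11.3 CPM against 132 and 95.2 CPM. Arc, an activity-regulated gene with a protein that forms capsids, was the most abundant of the 12, at 485 and 465 CPM in WT and 1028 and 1126 CPM in Mettl3KO. Fgl2, Klk10, Olfml3, Lsm10 and Pi16 were the others, with log2 fold changes of 1.89, 2.39, 1.43, 1.51 and 3.80, and Pi16 reached 29.7 CPM in Mettl3KO replicate 2 against 9.68 CPM in replicate 1. All 24 genes kept their direction of change under each of 12 alternatives, which included leaving out each library. The 24 were chosen from these same libraries by smallest p, with groups that did not overlap. Their steadiness in refits of the same libraries is therefore no separate support.

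**Figure D2:**
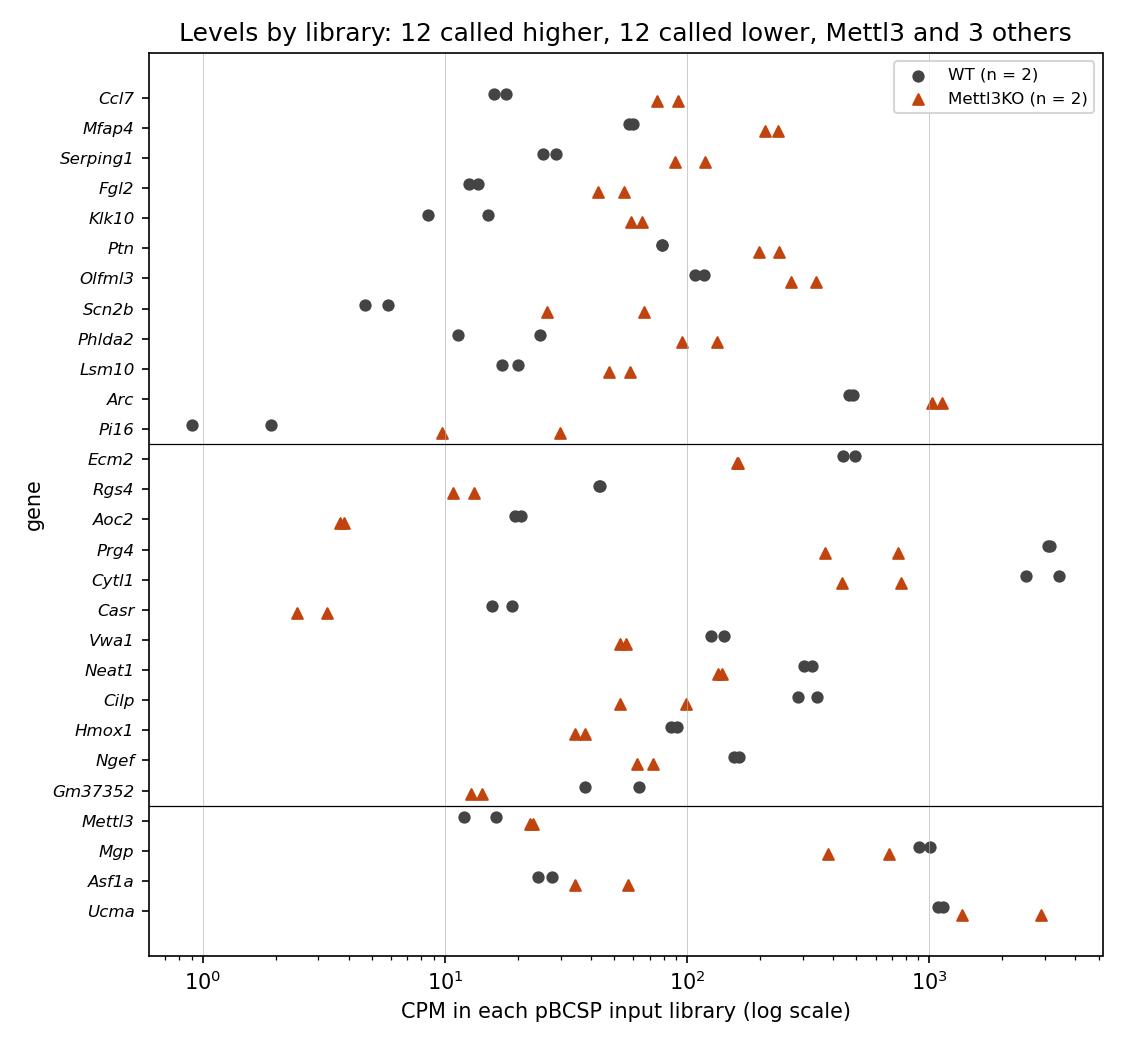
CPM of 28 genes in each pBCSP input library, on a log axis, with WT libraries as grey circles and Mettl3KO libraries as orange triangles (2 libraries each, no mean drawn). The upper block holds the 12 genes called higher, the middle block the 12 called lower, and the last 4 rows show Mettl3, Mgp, Asf1a and Ucma, where the Mettl3KO libraries of Mgp and Ucma lie far from each other.

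The cartilage matrix list had 1 member called higher and 7 called lower of 22 tested, with a median log2 fold change of -0.49 against -0.02 over all tested genes. For this and every list below, the shares of all tested genes called were 3.88% higher and 4.48% lower. These shares rose with level, to 13.9% and 11.1% among the 108 genes with a mean of at least 1000 CPM. Beside Prg4 and Cilp, the lower members of the cartilage matrix list were Col2a1, Col9a1, Col9a2, Chad and Mgp. Col2a1, the main collagen of cartilage, stood at 70481.5 and 75862.5 CPM in WT and at 50107.6 and 40148.2 CPM in Mettl3KO (log2 fold change -0.70 ± 0.21, unadjusted p = 0.0155). Col9a1, a chain of the type IX collagen on the surface of type II fibrils, was at 6436 and 7319 CPM against 4336 and 4632 CPM. Both Mettl3KO libraries were below both WT libraries for the 2 chains. Chad, a cartilage adhesion protein, was at 4877 and 4585 CPM against 1790 and 3328 CPM. The other members were spread on both sides of zero, among them Acan, the core protein of aggrecan, which was at 965 and 940 CPM against 957 and 980 CPM, and Hapln1, the link protein that ties aggrecan to hyaluronan (0.14 ± 0.20). The list summed to 142380 and 144456 CPM in WT and to 114101 and 93618.8 CPM in Mettl3KO. Without WT replicate 1 only 3 members were called, and without WT replicate 2 only 2, with Col2a1, Col9a1, Col9a2, Chad and Mgp lost in both cases.

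Mgp and Ucma, both inhibitors of calcification that carry vitamin K-dependent Gla residues, were called in opposite directions. Mgp (chr6:136872435-136875823) stood at 1002 and 909 CPM in WT and at 383 and 682 CPM in Mettl3KO (log2 fold change -0.84 ± 0.31, unadjusted p = 0.0364). Ucma (chr2:4976122-4985748), a marker of resting and upper-zone chondrocytes, stood at 1138 and 1084 CPM in WT and at 2888 and 1366 CPM in Mettl3KO (0.94 ± 0.37, unadjusted p = 0.0446). The groups did not overlap for either gene, yet neither call was kept when WT replicate 1, WT replicate 2 or Mettl3KO replicate 1 was left out. For Ucma, most of the difference lay in Mettl3KO replicate 1, and without it the log2 fold change was 0.29.

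Enzymes and chaperones of collagen were examined after the values were seen. Of 23 procollagen-processing genes tested, 1 was called higher and 7 lower (median -0.18). Serpinh1, the collagen chaperone of the endoplasmic reticulum, was the higher one, at 4535 and 3280 CPM in WT and 13878.4 and 6620 CPM in Mettl3KO. The lower ones were the lysyl hydroxylase Plod2, the prolyl 3-hydroxylase P3h2, its family member P3h4, the foldase Fkbp10 and the lysyl oxidase-like cross-linking enzymes Loxl2, Loxl3 and Loxl4. Loxl4 was at 50.4 and 53.1 CPM against 17.5 and 27.2 CPM, and Plod2 at 454 and 441 CPM against 240 and 297 CPM. The Serpinh1 call was lost without WT replicate 2, as were all the lower ones but Loxl4, and without WT replicate 1 only Serpinh1, Loxl2 and Loxl4 stayed called. Of 14 general folding genes of the endoplasmic reticulum, 3 disulfide isomerases were called higher (Pdia3, Pdia4 and Pdia6) and none lower. None of the 3 was called without WT replicate 2, Pdia3 and Pdia6 were not called without WT replicate 1, and without Mettl3KO replicate 1 the change of Pdia3 was 0.39 and not called. Among 41 collagen genes, 2 were called higher and 6 lower, beside 3.88% and 4.48% of all tested genes. The lower ones beyond the cartilage chains were Col15a1, Col8a2 and Col16a1, with log2 fold changes of -1.43, -1.40 and -0.79. The higher ones, Col22a1 and Col6a6, reached at most 23.1 and 15.8 CPM.

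The regulators of cartilage were near their WT levels for the most part. Of 13 tested chondrocyte regulators and hypertrophy genes, 1 was called higher and 1 lower, with a median of 0.00. Sox9, the master transcription factor of cartilage, was at 5819 and 6625 CPM in WT and 5472 and 5853 CPM in Mettl3KO, a log2 fold change of -0.14 ± 0.20. Its partners Sox5 and Sox6 had changes of 0.00 and -0.17. Fgfr3, the receptor that restrains chondrocyte division, was called lower, at 493 and 424 CPM against 182 and 273 CPM (-1.01 ± 0.27, unadjusted p = 0.00957). Ihh, the Hedgehog ligand of prehypertrophic chondrocytes, was called higher, at 32.6 and 40.7 CPM against 73.6 and 52.9 CPM (0.79 ± 0.28). Without WT replicate 1 neither was called, and Ihh was also lost without WT replicate 2 or Mettl3KO replicate 1. Of 14 tested osteoblast genes, 1 was called higher and 1 lower, beside 3.88% and 4.48% of all tested genes. Spp1 (osteopontin) was called higher at 771 and 538 CPM against 1451 and 940 CPM, and Sparc (osteonectin) was called lower at 22543.6 and 20924.6 CPM against 12904.6 and 15478.4 CPM. Runx2, which starts the bone programme, had a change of -0.33 ± 0.26, and Col1a1 of 0.17 ± 0.20. Without WT replicate 2 neither osteoblast call was kept, nor was it without Mettl3KO replicate 1.

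Most genes of S phase and mitosis had a positive change in Mettl3KO. Of 23 tested, 5 were called higher and none lower, and the median was 0.65. A positive log2 fold change was found for 21 of the 23, beside 48.7% of all tested genes. Ccnb1, the cyclin of mitotic entry, stood at 24.2 and 17.9 CPM in WT and at 61.0 and 49.7 CPM in Mettl3KO (1.39 ± 0.28, unadjusted p = 0.0025). Birc5 (survivin) was at 14.7 and 9.29 CPM against 43.2 and 24.6 CPM, and Aurkb, its partner kinase in the chromosomal passenger complex, at 9.0 and 5.74 CPM against 35.1 and 13.9 CPM. Mki67 and Aurka were the other called members, with changes of 1.26 and 1.01. The replication helicase genes Mcm2 to Mcm7, by contrast, had changes of at most 0.89 and none was called. The summed level of the list was 703 and 577 CPM in WT and 1096 and 713 CPM in Mettl3KO, so replicate 2 was close to WT replicate 1. Only 3 members were called without WT replicate 1 and 2 without WT replicate 2, while Ccnb1 was called in every case. Among 16 genes of G1 and quiescence, the G1/S cyclin Ccne1 alone was called, at 13.5 and 14.3 CPM against 41.9 and 30.2 CPM. Cdk6, a G1 kinase, was at 112 and 57.1 CPM against 307 and 105 CPM and did not pass (unadjusted p = 0.0645).

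The promoters of Ccnb1 and Mki67 are shown because both mitotic genes were called higher and both hold the CCAAT box, the site of the factor NF-Y. Each run gives the 250 bases before the start of the gene from RefSeq on GRCm38.p6, on the minus strand of chr13:100786487-100786736 for Ccnb1 and of chr7:135716380-135716629 for Mki67, 5′ to 3′, with CCAAT on either strand in capitals.
Ccnb1: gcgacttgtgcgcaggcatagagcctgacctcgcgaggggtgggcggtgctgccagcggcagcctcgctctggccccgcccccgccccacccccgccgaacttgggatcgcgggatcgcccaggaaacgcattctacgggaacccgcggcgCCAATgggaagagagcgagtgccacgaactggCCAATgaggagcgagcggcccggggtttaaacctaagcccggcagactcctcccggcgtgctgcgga
Mki67: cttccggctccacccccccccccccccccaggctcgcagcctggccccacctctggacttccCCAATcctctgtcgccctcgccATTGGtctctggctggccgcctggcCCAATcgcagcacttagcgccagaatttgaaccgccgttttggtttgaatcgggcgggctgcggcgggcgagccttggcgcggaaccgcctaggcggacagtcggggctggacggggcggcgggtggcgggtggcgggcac
The match stood 99 and 67 bases before the start in Ccnb1, and 188, 166 and 141 bases before it in Mki67. A CCAAT was present in 34.5% of all 27025 promoter windows and in 36% of the 11053 that belong to tested genes, and in 41.7% of the windows of higher genes against 30.6% of those of lower genes. These are shares of windows, with no test.

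Asf1a (chr10:53596757-53609225), a histone H3-H4 chaperone, stood at 27.8 and 24.3 CPM in WT and at 56.8 and 34.3 CPM in Mettl3KO (0.81 ± 0.32, unadjusted p = 0.0441). Its paralogue Asf1b, which serves DNA replication, was at 9.17 and 11.5 CPM against 44.3 and 18.1 CPM (1.596 ± 0.48). In both genes Mettl3KO replicate 1 was the highest library and the groups did not overlap. They were the 2 called members of 10 histone chaperone genes, and without WT replicate 1 or Mettl3KO replicate 1 neither was called. The Hira, Daxx and Nasp genes had changes of 0.58, 0.05 and 0.02 and were not called. Of 48 histone genes tested, a group examined after the values were seen, 4 were called higher and none lower while the median was -0.58. The called ones included the linker histone H1f0, at 761 and 756 CPM in WT and 1913 and 1401 CPM in Mettl3KO.

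In the m6A machinery, 2 of 9 writer genes and 2 of 12 eraser and reader genes were called higher, beside 3.88% of all tested genes. Wtap, the adaptor that holds the writer complex together, was at 87.5 and 67.3 CPM in WT and at 240.0 and 159 CPM in Mettl3KO (1.36 ± 0.29, unadjusted p = 0.0036), and Rbm15, which guides the complex to its sites, at 100.4 and 69.2 CPM against 217 and 117 CPM. Mettl14 was at 8.36 and 11.5 CPM against 11.4 and 10.9 CPM, with overlapping groups. Of 12 eraser and reader genes, Ythdf2 (219 and 210 CPM against 336 and 327 CPM) and the nuclear reader Hnrnpc were called higher, and the demethylases Fto and Alkbh5 had changes of 0.01 and 0.07. The Rbm15 call was lost without WT replicate 2 or Mettl3KO replicate 1, and both reader calls were lost without either WT library.

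Of 23 tested genes of the BMP pathway, 3 were called lower and none higher, with a median of -0.40 and 20 negative values. Over all tested genes, 48.7% of the changes were positive. Among the ligands, Bmp7 was at 131 and 111 CPM in WT against 73.8 and 71.6 CPM in Mettl3KO (-0.74 ± 0.22), and Gdf5, a marker of joint progenitors, at 36.0 and 49.5 CPM against 22.4 and 25.1 CPM (-0.85 ± 0.27). Among the targets, Id2 was at 356 and 353 CPM against 119 and 254 CPM. Its relatives Id1 and Id3 were low in Mettl3KO replicate 1 alone, at 139 and 193 CPM, and stood at 293 and 514 CPM in replicate 2, above their WT levels of 255 to 501 CPM. Receptors and Smad genes were not called. With either WT library left out a single BMP gene was called, and Id2 was not called without Mettl3KO replicate 1. In the Wnt pathway, 2 of 26 were called higher and 2 lower, beside 3.88% and 4.48% of all tested genes. The secreted Wnt deacylase Notum was at 78.3 and 57.6 CPM in WT against 24.7 and 25.2 CPM (-1.44 ± 0.26, unadjusted p = 0.00151), and Dkk3 at 254 and 263 CPM against 137 and 154 CPM. The nuclear effector Lef1 was at 101 and 93.3 CPM against 170 and 134 CPM, and the antagonist Dkk2 was called higher at 11.9 CPM or less in every library, and without either WT library both of these calls were lost.

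Of 16 genes of the Fem1b ligase and the Hedgehog pathway, Ihh alone was called, beside 3.88% higher and 4.48% lower over all tested genes. Fem1b, the substrate receptor of a Cul2 ubiquitin ligase, was at 31.2 and 35.4 CPM in WT and at 64.4 and 41.5 CPM in Mettl3KO (0.67 ± 0.29, unadjusted p = 0.0643). Gli1, the target and effector of Hedgehog signalling, was at 23.7 and 28.0 CPM against 19.1 and 28.1 CPM, with overlapping groups, and Gli2 at 42.1 and 51.4 CPM against 15.0 and 46.2 CPM. Of 13 genes that the study names in SSC, the ubiquitin-conjugating enzyme Ube2h was called higher (66.7 and 65.6 CPM against 181 and 97.3 CPM) and Mgp and Id2 lower. Without WT replicate 2 none of the 13 was called.

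Interferon-stimulated genes had 3 members called higher and 1 lower of 13 tested, with a median of 0.62, and the called ones were at low levels. Ifit3, an antiviral RNA-binding protein, was at 4.37 and 2.47 CPM in WT and at 14.7 and 15.6 CPM in Mettl3KO (2.15 ± 0.45, unadjusted p = 0.00321). Isg15, a ubiquitin-like modifier, was at 0.324 and 0.216 CPM against 2.87 and 2.92 CPM, from 10 and 7 counts in WT and 97 and 94 counts in Mettl3KO. Bst2 (tetherin) was at 8.0 and 4.57 CPM against 14.7 and 13.7 CPM. In all 3 genes the Mettl3KO libraries lay close to each other and above both WT libraries. The RNA sensor gene Ifih1 was called lower, at 2.59 and 3.61 CPM against 0.799 and 0.497 CPM. Isg15 was not called without either WT library, nor was Ifih1, and Bst2 was lost without WT replicate 2.

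The promoters of Isg15, Ifit3 and Bst2 are shown because these are the 3 called higher and each holds the interferon-stimulated response element (ISRE). The runs are the 250 bases before the start of each gene from RefSeq on GRCm38.p6, 5′ to 3′, with its letters in capitals, which are GAAA, any 2 bases and GAAA again, on either strand. They lie at chr4:156200819-156201068 on the minus strand for Isg15, chr19:34583279-34583528 on the plus strand for Ifit3 and chr8:71537473-71537722 on the minus strand for Bst2.
Isg15: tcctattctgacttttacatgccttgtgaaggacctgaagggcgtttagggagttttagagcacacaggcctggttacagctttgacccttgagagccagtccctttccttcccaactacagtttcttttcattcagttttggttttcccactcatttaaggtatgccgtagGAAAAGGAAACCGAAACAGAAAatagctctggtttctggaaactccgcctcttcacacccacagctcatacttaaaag
Ifit3: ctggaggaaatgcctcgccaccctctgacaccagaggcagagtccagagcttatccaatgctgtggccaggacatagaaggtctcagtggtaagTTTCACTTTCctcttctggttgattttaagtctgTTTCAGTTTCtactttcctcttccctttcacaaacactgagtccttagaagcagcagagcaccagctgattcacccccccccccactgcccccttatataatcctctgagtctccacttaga
Bst2: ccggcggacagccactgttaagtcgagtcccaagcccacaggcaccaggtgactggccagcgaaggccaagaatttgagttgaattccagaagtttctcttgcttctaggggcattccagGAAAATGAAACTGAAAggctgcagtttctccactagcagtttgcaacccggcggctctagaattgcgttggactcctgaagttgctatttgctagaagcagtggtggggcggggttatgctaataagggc
Isg15 held 3 overlapping matches, the first 78 bases before the start, and Ifit3 and Bst2 held 2 each. These letters were found in 3.04% of all promoter windows, in 2.4% of those of tested genes, in 2.65% of those of higher genes and in 2.55% of those of lower genes. The window of Ifih1 held none. The SOX motif ACAAAG was in 12% of the windows of tested genes and in 0 of the 5 cartilage matrix genes called that had a window, and the AP-1 motif TGANTCA was in 4.49% of tested, 3.75% of higher and 5.3% of lower genes, all counted on both strands.

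Chemokine, complement and C1qtnf genes were examined after the values were seen. Of 16 chemokine ligand genes, Ccl7, Ccl2 and Cxcl12 were called higher and none lower. Ccl2 was at 5.57 and 1.88 CPM in WT and at 7.43 and 25.2 CPM in Mettl3KO, and Cxcl12, which retains blood stem cells in marrow, at 18.1 and 32.7 CPM against 37.7 and 83.7 CPM. For both, replicate 2 of Mettl3KO was the higher, and without it neither was called. Of 17 complement or C1qtnf genes, 3 were called higher (Serping1, C1qc and C1qtnf7) and 1 lower (C3). Apart from Serping1 these were below 22 CPM in every library, and C1qc had 0 and 0 counts in WT against 32 and 24 in Mettl3KO.

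Of 12 immediate early and heat shock genes, 2 were called lower and none higher (median -0.42). Fos was at 3922 and 4886 CPM in WT and at 2063 and 2948 CPM in Mettl3KO (-0.81 ± 0.26, unadjusted p = 0.0206), and the phosphatase gene Dusp1 at 2873 and 3344 CPM against 2240.0 and 2068 CPM. Egr1, with 4497 and 4427 CPM against 2449 and 3481 CPM, missed the threshold (-0.59 ± 0.24). The AP-1 gene Junb overlapped between genotypes, at 4164 and 5002 CPM against 3873 and 4816 CPM. The heat shock genes Hspa1a and Hspa1b had changes of 0.09 and 0.16. Without WT replicate 2 neither Fos nor Dusp1 was called, and without WT replicate 1 a single member was. Of 16 hypoxia and glycolysis genes, Pdk1 (85.0 and 66.0 CPM against 30.7 and 48.8 CPM) and Pfkfb3 (102 and 86.1 CPM against 60.2 and 61.6 CPM), both regulators of glucose use, were called lower, while Ldha was at -0.02 ± 0.29. Without WT replicate 1 neither was called.

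**Figure D3:**
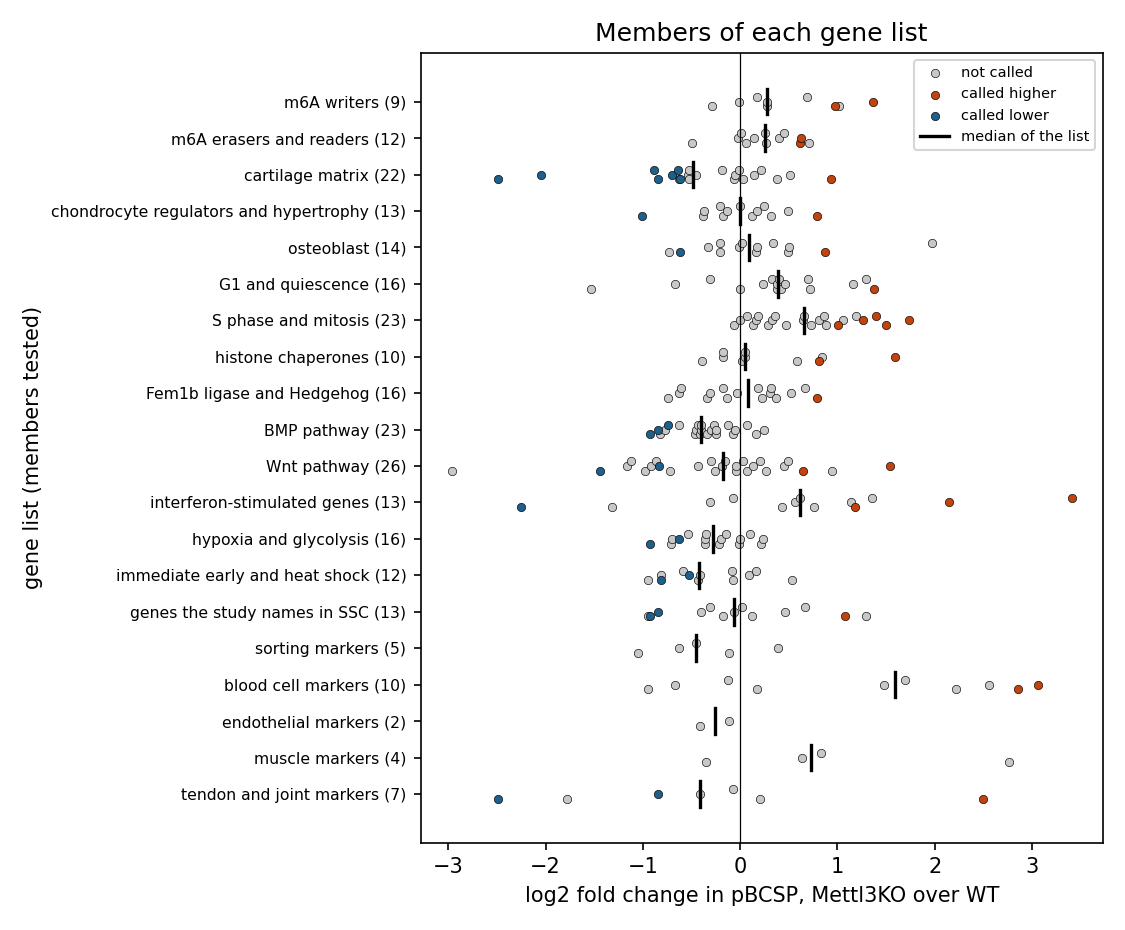
Log2 fold change in pBCSP (Mettl3KO over WT) of the tested members of 20 gene lists, with 1 point a gene, orange for called higher, blue for called lower and grey for neither, and a black bar at the median of each list. The cartilage matrix points reach to -2.49 (Prg4) on the left, and most S phase and mitosis points lie to the right of zero.

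Markers of other cell types were mostly low. Of 10 tested blood cell markers, the haemoglobin genes Hba-a1 and Hba-a2, near-identical copies whose reads may be split between them, were called higher at no more than 11.9 CPM, and the 12 markers summed to 27.3 and 27.1 CPM in WT against 35.5 and 61.3 CPM in Mettl3KO. Ptprc (CD45) had no count in 3 libraries and 70 counts in Mettl3KO replicate 2, and S100a8 reached 4.04 CPM there. Endothelial markers summed to 0.977 to 8.03 CPM, and Cdh5 had no count in 3 libraries. Muscle markers summed to 24.9 to 38.8 CPM, mostly from Tnnt3, and Myog and Myh8 had no count in any library. Tendon and joint markers summed to 3459 and 3457 CPM in WT and to 755 and 1118 CPM in Mettl3KO, and Prg4 gave most of the WT sums. Within that list Kera, a proteoglycan of cornea and tendon, was called higher at 24.4 and 9.20 CPM against 104 and 85.8 CPM, while the tendon genes Tnmd and Mkx had changes of 0.21 and -0.07. Of the sorting markers, none of 5 tested was called, and the gene of CD105, Eng, was found at 31.3 to 64.2 CPM. The part of these other cells in the results was not tested.

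To see whether these genes were also called in the neighbouring populations, each was set beside its change in SSC and BCSP. These have their own libraries, but libraries of 1 genotype and number may share animals with those of pBCSP. The overlaps may thus not be independent, and the part of shared animals in them was not tested. Of the 622 genes called higher in pBCSP, 281 were also called higher in SSC (45.2% of the pBCSP list and 25.1% of the SSC list, where 6.96% of all tested genes were called higher) and 220 in BCSP (35.4% and 18.7%, background 7.22%). Of the 717 lower genes, 198 were called lower in SSC (27.6% and 17.4%, background 7.07%) and 127 in BCSP (17.7% and 13.6%, background 5.72%). The shares of the pBCSP lists count untested genes as not called, while the backgrounds cover tested genes only. Of the higher genes, 598 were tested in SSC and 607 in BCSP, and of the lower genes 656 in each. Calls in opposite directions numbered 3 and 5 in SSC and 1 and 7 in BCSP. Prg4 had log2 fold changes of -1.90 in SSC and -1.39 in BCSP, Cytl1 of -2.25 and -2.20, Ecm2 of -1.27 and -0.94 and Ccl7 of 1.66 and 1.80. The cartilage collagens stood otherwise: Col2a1 had -0.22 and -0.10 and Col9a1 -0.14 and -0.07 in SSC and BCSP.

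No gene passed an adjusted p of 0.05 for a difference between the change in pBCSP and that in SSC (smallest adjusted p = 0.680 by edgeR over 18655 genes and 12 libraries), nor for BCSP (0.698), while DESeq2 passed 17 and 29. An unadjusted p under 0.05 was found against SSC for 315 genes in the higher direction (1.69%) and 524 in the lower (2.81%), and against BCSP for 507 (2.72%) and 812 (4.35%). For Col2a1 the adjusted p of the difference was 1.00 against SSC and 0.75 against BCSP. Against BCSP, the smallest p belonged to Thbs4, a matrix protein of tendon and muscle, with a difference of -1.83 ± 0.30 (unadjusted p = 5.64e-05). Scaled over the 12 libraries, Thbs4 was at 115 and 123.1 CPM in WT pBCSP and 83.0 and 95.8 CPM in Mettl3KO pBCSP, but at 28.6 and 33.5 CPM in WT BCSP and 76.1 and 89.8 CPM in Mettl3KO BCSP. Cilp came next (-2.53 ± 0.44), lower in pBCSP and at 77.1 and 67.0 CPM in WT against 84.5 and 117 CPM in Mettl3KO in BCSP. Egfl6 and Cdh11 had differences of -2.41 and -1.75, with changes of 1.80 and 1.71 in BCSP, while in pBCSP their changes were -0.62 and -0.05 and not called. The difference for Psme4, a proteasome activator, led in the other direction (1.68 ± 0.41), from changes of 1.07 in pBCSP and -0.61 in BCSP.

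Against SSC, Serping1 had a difference of 2.07 ± 0.39 (unadjusted p = 0.000182). It was at 6.83 and 11.97 CPM in WT SSC and at 8.58 and 8.52 CPM in Mettl3KO SSC, with overlapping groups, whereas the pBCSP groups were well apart. Mfap4 and the small GTPase gene Rit1 had differences of 1.78 and 1.69, and Rit1 had changes of 0.10 in pBCSP and -1.62 in SSC. In the other direction stood Ikbkg (-1.63 ± 0.35), a regulator of NF-kB, Hivep3 (-1.26, from -0.25 in pBCSP and 0.98 in SSC) and Fgf1 (-2.66), a growth factor at 16.1 and 9.35 CPM in WT SSC and 23.5 and 19.8 CPM in Mettl3KO SSC but at 3.47 and 5.90 CPM against 1.65 and 0.868 CPM in pBCSP. When a term for each genotype and replicate number was added, 1 gene passed an adjusted p against SSC, Igfbp6, a binder of insulin-like growth factors with a difference of 2.70 ± 0.31, and none passed against BCSP. In pBCSP input, Igfbp6 itself was at 46.0 and 58.4 CPM in WT and 46.8 and 142 CPM in Mettl3KO.

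**Figure D4:**
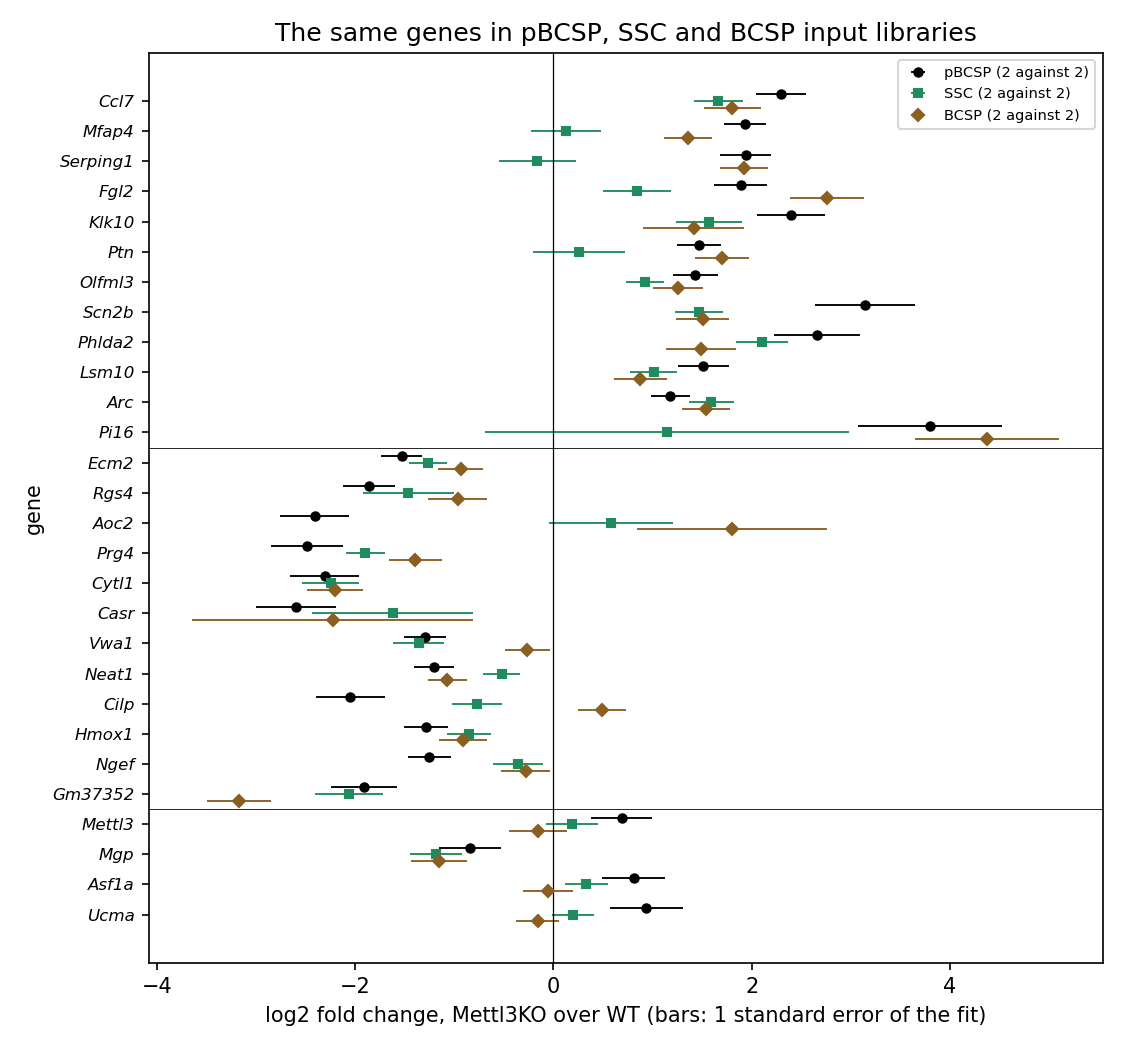
Log2 fold change (Mettl3KO over WT) of the same 28 genes in pBCSP (black circles), SSC (green squares) and BCSP (brown diamonds), each from 2 against 2 input libraries, with bars of 1 standard error. Cytl1 lies near -2.2 in all 3 populations, while Serping1 is high in pBCSP and BCSP and near zero in SSC and Cilp is far below zero in pBCSP.

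The m6A IP libraries came from the same sorted cells, so they are not an independent test of mRNA. A count was found for 18515 and 18714 genes in WT IP and for 14159 and 13492 in Mettl3KO IP, and 53.8% of all genes tested there were lower in Mettl3KO. No gene passed an adjusted p with edgeR, and 2404 of 14684 had an unadjusted p under 0.05. Of the genes called higher in input, 573 were tested in IP and 396 of these had the same direction. In IP, 88 of the 573 were called higher and 28 lower. Of the genes called lower in input, 582 were tested in IP and 422 had the same direction. In IP, 110 of the 582 were called lower and 3 higher. Over all 14684 genes tested in IP, 3.7% were called higher and 12.7% lower. Prg4 was at 7334 and 7564 CPM in WT IP and at 934 and 982 CPM in Mettl3KO IP, and Cytl1 at 4726 and 7157 CPM against 723 and 1091 CPM. Fgl2, one of the genes called in opposite directions, went the other way from its input, at 3.48 and 4.07 CPM in WT IP and 0.0701 and 0.0769 CPM in Mettl3KO IP.

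Genes enriched in the m6A IP libraries of WT cells were examined because Mettl3 writes this mark. Whether the enrichment of each gene depends on Mettl3 was not tested. A gene was taken as tagged where IP over input exceeded a log2 fold change of 1 with an unadjusted p under 0.05 in both WT SSC and WT BCSP, which keeps the pBCSP libraries out of the choice. The WT SSC and WT BCSP libraries may still share animals with those of WT pBCSP. The 679 tagged genes tested in pBCSP had a median log2 fold change of 0.06, with 5.01% called higher and 2.65% lower, beside -0.02, 3.88% and 4.48% over all tested genes. Ccl7, Phlda2, Prg4 and Mgp were tagged, and Cytl1, Ecm2, Mfap4, Serping1, Ucma and Asf1a were not. Without Mettl3KO replicate 1 the median of the tagged genes was -0.0033. The median transcript length, taking 1 GENCODE vM21 transcript a gene, was 2609 bases for higher genes, 3625 bases for lower genes and 3133 bases for all tested, with GC contents of 50.3%, 50.8% and 49.7%. The m6A-like word GGACT occurred 1.12, 1.05 and 1.02 times per kb in the 3 sets, as medians.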

How the data were processed

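Sorted cells gave paired input and m6A IP libraries (Smart-seq2-based, cut by Tn5, not strand-marked, so reads of overlapping genes on opposite strands cannot be told apart). Per the labels, the authors trimmed reads with fastp 0.20.1, aligned them with HISAT2 2.2.1 to GRCm38 and deposited raw counts per gene from featureCounts 2.0.1. The 2 other deposited tables hold the authors' own comparison in SSC and were not used. Of 46959 entries, 128 under 2 names altered to dates were dropped, at most 0.39% of counts.

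Counts were tested with edgeR 4.0.16 (TMM, filterByExpr, quasi-likelihood F test, Benjamini-Hochberg adjustment) on the 4 pBCSP input libraries. Differences between populations used 12 input libraries in 1 fit. CPM are TMM-scaled, and SE is the log2 fold change over the root of F. DESeq2 1.42.0 was an alternative. With 2 against 2 libraries the smallest two-sided exact permutation p is 0.333. Named genes were Mettl3, Mgp, Asf1a and Ucma, the 12 called genes each way with the smallest p (groups not overlapping, mean of at least 10 CPM), called members of each list or else its most abundant, and the 5 genes each way with the smallest p for each difference. Families said to be examined after the values were seen, Igfbp6 and the uncalled members named from lists that had called ones (such as Acan, Sox9, Runx2, Mettl14, Gli1 and Egr1), as well as Ptprc, S100a8, Cdh5, Myog and Myh8, fall outside this rule and were chosen after their values were seen. Members and lists were chosen with earlier results of these data known. Scripts were tested on simulated data. Of 46831 genes, 95.4% matched 1 GENCODE vM21 entry. Replicate libraries were compared by chi-square, which over its degrees of freedom came to 54.4 in WT and 159 in Mettl3KO, above sampling noise. Depth limits genes near 3 counts, a floor of 0.0849 to 0.0972 CPM, which covers counting error only.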

Additional observations from a re-analysis of the deposited data

How the results depend on the processing

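By edgeR no gene of pBCSP passed an adjusted p with DESeq2 size factors, library size alone, the stricter count filter, the replicate block or the added sex term, whereas 158 genes passed by DESeq2's Wald test, 245 with no filter and 7 in the fit over 12 libraries (Ccl7, Scn2b, Serping1, Ecm2, Neat1, Prg4 and Slc35g1), and leaving out 1 library gave 0 to 557. The study's rule called 2244 genes with no filter, 2069 over 12 libraries, 855 at a mean of at least 10 CPM and 335 to 4456 without 1 library, where the lone library of an arm is assumed to vary like the others. The sex term, the 10 CPM count and the term for genotype and replicate number were chosen after seeing the data. Mettl3 passed the rule over 12 libraries alone (0.69, unadjusted p = 0.021). The tagged median was 0.10 with tags from WT pBCSP and -0.0033 to 0.0713 without 1 library. For the difference from SSC, adjusted calls were 17 by DESeq2, 51 with no filter, 1 with the genotype and replicate term and 0 to 46 without 1 library, and unadjusted calls were 1271 with no filter and 575 to 2111 without 1 library. For BCSP the adjusted calls were 29 by DESeq2, 30 with no filter and 0 to 111 without 1 library, and the unadjusted ones 716 to 3003 without 1 library. IP calls were 789 with the replicate block and 192 to 6117 without 1 library, against 2404. The causes were not tested. Deviations of WT and Mettl3KO libraries with the same replicate number were weakly correlated (0.061). This cannot settle whether the numbers mark paired samples, which the labels do not say. The replicate block called 1330 genes in input, 996 of them in common with the 1339, and 0 at adjusted p. Of 84 called genes followed across the alternatives, none changed direction, 36 stayed called under all 12, and 2 were lost with the replicate block. The losses were most frequent when a WT library was left out. Some called genes named above, such as Fgf1, Psme4 and C1qc, were not among the 84. Over all tested genes, leaving out Mettl3KO replicate 2 put the median at -0.14, and without the filter it was -0.11.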
